A study of Homo sapiens with 9 samples.

Results

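Small nucleolar RNA host transcripts are spliced RNAs whose introns carry small nucleolar RNAs (snoRNAs). The 10 described here, SNHG1, SNHG5, SNHG6, SNHG7, SNHG8, SNHG12, SNHG15, SNHG16, GAS5 and ZFAS1, were taken by gene symbol from a list of named noncoding hosts, drawn up with earlier results of these data known. They are 10 of the 27800 symbols in the expression table, and all 10 passed the filter on low values. RNA of Huh7, an established human hepatocellular carcinoma line, was sequenced from 3 groups of 3 libraries. One group had received 0.5 uM JQ1 for 48 h, which displaces BET bromodomain proteins from acetylated histones. Another had received 5 uM FIDAS-5 for 48 h, an inhibitor of MAT2A, the enzyme that makes S-adenosylmethionine. Vehicle-treated cells were the control for both, and all groups were grown in DMEM with serum, with no genetic change named. Each compound was given at 1 dose and 1 time, and the line is a single tumour line.

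The exons of these genes have little coding capacity, and the spliced RNA is best known as what remains once the introns have been processed. The introns are debranched and trimmed to snoRNAs, which bind fibrillarin or dyskerin and guide methylation or pseudouridylation of ribosomal RNA. Many host RNAs begin with a run of C and T bases, as the mRNAs of ribosomal proteins do (5' terminal oligopyrimidine, or TOP, transcripts), and several are degraded by nonsense-mediated decay during translation. GAS5 was first found as a transcript that accumulates when growth stops, and SNHG1 as the host of a row of snoRNAs between exons of no known coding use. In liver cancer several of these RNAs have been studied as abundant long noncoding RNAs.

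The 10 hosts lie on 9 chromosomes in GRCh38, here with the spans of RefSeq and the strands of GENCODE 29. SNHG1 lies at chr11:62851978-62855885 on the minus strand and GAS5 at chr1:173863901-173869045 on the minus strand. SNHG15 lies at chr7:44983023-44986696 on the minus strand and SNHG16 at chr17:76557764-76565348 on the plus strand. Within the 10 spans RefSeq places 36 snoRNAs that have symbols in the table, 28 of the box C/D class and 8 of the box H/ACA class, each 60 to 134 bases long. GAS5 holds 11 of them, SNHG1 8, SNHG12 4, SNHG16 and ZFAS1 3 each, SNHG5 and SNHG7 2 each, and SNHG6, SNHG8 and SNHG15 1 each. All 36 lie in an intron of at least 1 GENCODE transcript of their host, and 30 also overlap an exon of another, so reads of these 30 may count for the host or for the snoRNA. GENCODE 29 lists 22 of the 36 on the host's strand, and for the other 14 only the position was checked.

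The snoRNAs printed first are SNHG1 snoRNAs that fell with both compounds in limma. Capitals mark the C box (TGATGA) where that exact motif occurs and the D box (CTGA) of box C/D snoRNAs, and the ACA box of box H/ACA snoRNAs. All are GENCODE 29 gene sequences of GRCh38, written 5' to 3' on the gene's strand. SNORD26, SNORD25 and SNORD28 come from SNHG1 introns at chr11:62855292-62855366, chr11:62855564-62855632 and chr11:62854621-62854695, minus strand.
SNORD26: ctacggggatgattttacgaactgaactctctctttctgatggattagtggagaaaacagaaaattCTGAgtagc
SNORD25: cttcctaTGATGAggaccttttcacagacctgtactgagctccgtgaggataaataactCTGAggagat
SNORD28: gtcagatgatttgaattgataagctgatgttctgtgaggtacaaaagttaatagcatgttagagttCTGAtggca

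The 3 box C/D snoRNAs of ZFAS1 carry related names and are shown because all 3 passed the test with JQ1 and 1 with FIDAS-5. They lie on the plus strand at chr20:49280683-49280772 (SNORD12), chr20:49280319-49280409 (SNORD12B) and chr20:49278940-49279028 (SNORD12C).
SNORD12: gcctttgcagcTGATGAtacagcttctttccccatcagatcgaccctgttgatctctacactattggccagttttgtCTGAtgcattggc
SNORD12B: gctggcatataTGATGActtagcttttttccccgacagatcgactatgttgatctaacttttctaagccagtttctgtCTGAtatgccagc
SNORD12C: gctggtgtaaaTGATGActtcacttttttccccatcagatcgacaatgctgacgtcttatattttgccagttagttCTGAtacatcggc

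SNORA9 of SNHG15 (chr7:44985378-44985510, minus strand) and SNORA24 of SNHG8 (chr4:118279190-118279320, plus strand) are box H/ACA snoRNAs. They are shown because each is the single snoRNA of its host.
SNORA9: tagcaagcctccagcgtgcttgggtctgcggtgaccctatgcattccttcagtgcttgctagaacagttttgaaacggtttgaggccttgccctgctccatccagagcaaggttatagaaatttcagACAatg
SNORA24: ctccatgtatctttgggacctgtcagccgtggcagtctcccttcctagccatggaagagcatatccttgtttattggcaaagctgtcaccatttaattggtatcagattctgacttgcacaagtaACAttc

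Start-site sequences are shown because the TOP run and the TATA box are features the hosts may share. RefSeq promoters (GRCh38.p14) matched 8 members, and the 50 bases before and 30 bases from the annotated start are printed for 5 of them. Capitals mark the longest run of C and T within 15 bases of the start, and TATAA where it lies 50 to 11 bases before the start. The windows are chr11:62855856-62855935 for SNHG1, chr17:76557714-76557793 for SNHG16, chr1:173869016-173869095 for GAS5, chr6:85678704-85678783 for SNHG5 and chr20:49278592-49278671 for ZFAS1. SNHG16 and ZFAS1 lie on the plus strand and the other 3 on the minus strand.
SNHG1: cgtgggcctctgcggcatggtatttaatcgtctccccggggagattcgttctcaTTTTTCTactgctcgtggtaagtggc
SNHG16: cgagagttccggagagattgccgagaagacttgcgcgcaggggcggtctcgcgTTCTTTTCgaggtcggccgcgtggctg
GAS5: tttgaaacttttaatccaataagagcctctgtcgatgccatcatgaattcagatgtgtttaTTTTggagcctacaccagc
SNHG5: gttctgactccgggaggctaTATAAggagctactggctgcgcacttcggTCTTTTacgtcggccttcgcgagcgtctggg
ZFAS1: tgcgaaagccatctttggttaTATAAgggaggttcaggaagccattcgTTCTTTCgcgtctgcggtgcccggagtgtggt

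The longest run of C and T within 15 bases of the start was 12 bases in SNHG12, 11 in SNHG7, 8 in SNHG16, 7 in SNHG1 and ZFAS1, 6 in SNHG5 and SNHG8, and 4 in GAS5. In SNHG7 it began at base -14 and ended before the start. In SNHG16, SNHG1 and GAS5 it began after the start, at bases 4, 5 and 12, so these 4 runs do not hold the annotated first base. The promoter starts of ZFAS1 and SNHG12 lie inside their RefSeq spans, whose outer ends are at 49278178 and 28582983. A run of at least 7 bases was found in 19.77% of 27305 RefSeq promoters and one of at least 5 bases in 49.24%. TATAA on the gene's strand, 50 to 11 bases before the start, was found in SNHG5, SNHG7, SNHG8, SNHG12 and ZFAS1, against 4.82% of all promoters. CACGTG, the E-box bound by MYC, which reads the same on both strands, occurred only in the 300-base promoter of SNHG7 among the 8, and in 7.43% of all. TGACGTCA, the cyclic AMP response element, was in none of the 8 and in 1.98% of all, searched on both strands. These matches describe letters and not binding.

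Values below are TPM, a share of the transcripts of a library corrected for their length, so levels can be compared between genes. Vehicle means ranged from 206 ± 36.8 TPM for SNHG1 to 7.47 ± 1.64 TPM for SNHG12 (SD, n = 3). Between these stood SNHG16 at 142 ± 6.95, SNHG8 at 133 ± 42.1, GAS5 at 85.3 ± 22.1, SNHG6 at 78.2 ± 17.5, SNHG5 at 59 ± 7.21, SNHG15 at 57.9 ± 12, ZFAS1 at 36.9 ± 6.05 and SNHG7 at 30.5 ± 0.798 TPM. SNHG1 stood above SNHG16, SNHG15 above ZFAS1 and SNHG7 above SNHG12 without overlap of libraries, and the other neighbours in this order overlapped. Reads were assigned without a stated strand, and SNHG6, SNHG7, SNHG12, SNHG16, GAS5 and ZFAS1 overlap genes of the other strand in GENCODE, so their reads and those of the partner cannot be told apart.

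**Figure D1:**
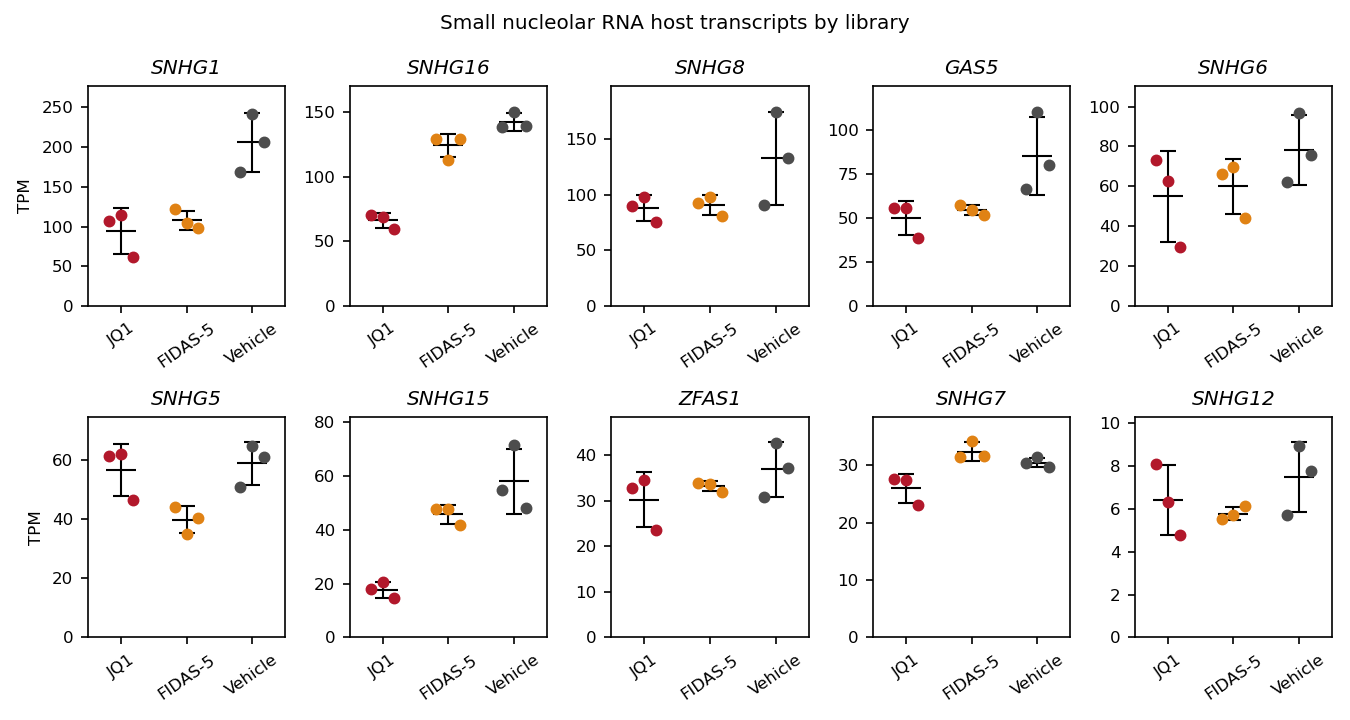
TPM of each host transcript in each library (points) with the mean and SD of 3 libraries (bars); each panel has its own axis from 0, with JQ1, FIDAS-5 and vehicle libraries from left to right. SNHG15 and SNHG16 are low in all 3 JQ1 libraries only, and SNHG1 is below all vehicle libraries with either compound.

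The 10 hosts together held 491 ± 98 TPM in JQ1 libraries, 594 ± 36.6 TPM in FIDAS-5 libraries and 836 ± 149 TPM in vehicle libraries (SD, n = 3 each). Single JQ1 libraries summed to 545, 550 and 378 TPM, FIDAS-5 libraries to 629, 597 and 556 TPM, and vehicle libraries to 698, 993 and 817 TPM. Every treated library lay below every vehicle library. The hosts also moved together within the vehicle and JQ1 groups: vehicle library 2 was the highest of its group for 10 of 10 hosts, vehicle library 1 the lowest for 8, and JQ1 library 3 the lowest of its group for 10 of 10. FIDAS-5 libraries 1, 2 and 3 were the highest for 4, 4 and 2 hosts and the lowest for 2, 2 and 6. The hosts' median deviation from the group mean was 0.25 in vehicle library 2 and -0.30 in JQ1 library 3 on the log2 scale, against -0.01 and -0.16 over all 13573 genes tested. What set these libraries apart was not tested, and results are given with and without them where they matter. Protein-coding symbols held 34.0, 33.5 and 27.6% of TPM in JQ1 libraries 1, 2 and 3. Their share was 33.1, 28.6 and 28.3% in FIDAS-5 libraries and 30.3, 32.1 and 30.8% in vehicle libraries. Rescaling over these symbols was among the other settings tried.

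**Figure D2:**
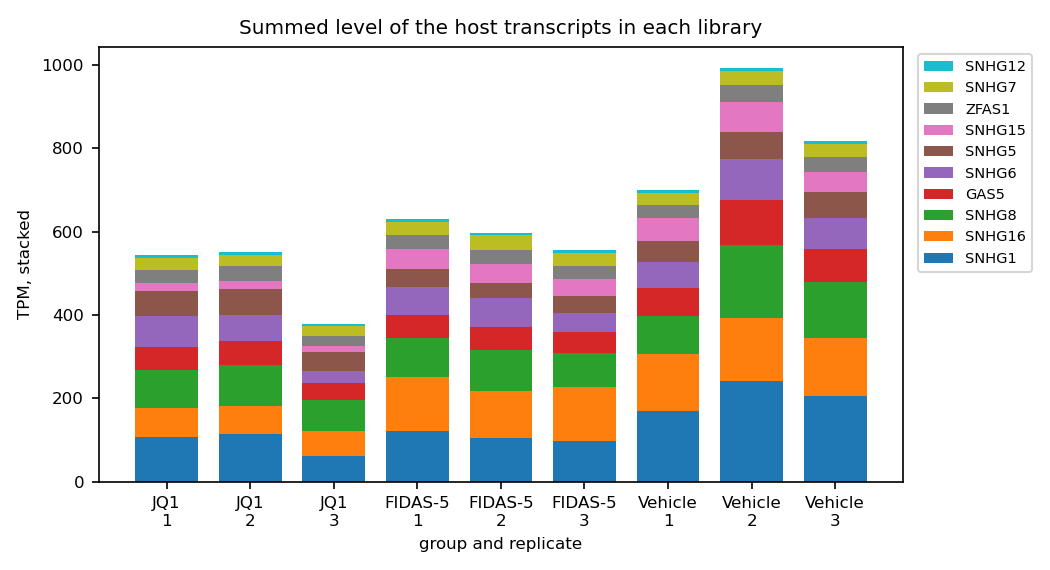
Summed TPM of the 10 host transcripts in each library, stacked by transcript, with JQ1, FIDAS-5 and vehicle libraries from left to right. The treated libraries sum to 378 to 629 TPM and the vehicle libraries to 698 to 993 TPM, and SNHG1 is the largest part of each vehicle bar.

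All 10 hepatocyte markers passed the filter, ALB, AFP and SERPINA1 among them. Their summed level was 8831 to 13184 TPM in JQ1 libraries, 3996 to 6107 TPM in FIDAS-5 libraries and 5079 to 6101 TPM in vehicle libraries. With JQ1, 6 of the 10 rose and 3 fell against vehicle in limma, where 19.0% of all genes tested rose and 19.4% fell. With FIDAS-5 2 of the 10 rose and 0 fell, where 12.6% of all genes rose and 7.60% fell. The 6 that rose with JQ1 were ALB, APOA1, APOB, SERPINA1, TF and HNF4A, at 294%, 619%, 391%, 315%, 145% and 188% of the vehicle mean. The 3 that fell with JQ1 were TTR, APOH and AHSG, so plasma protein genes moved in both directions. TTR averaged 89.3 TPM with JQ1 and 298 TPM in vehicle, APOH 16.7 TPM with JQ1 and 128 TPM in vehicle, and AHSG 66.3 TPM with JQ1 and 169 TPM in vehicle. Of the leukocyte markers, PTPRC and CD3E averaged at most 0.673 TPM in any group, and CD14 averaged 1.93 TPM with JQ1, 1.98 TPM with FIDAS-5 and 2.4 TPM in vehicle. LYZ, the lysozyme gene, averaged 12.4 TPM with JQ1, 253 TPM with FIDAS-5 and 113 TPM in vehicle. The 4 endothelial markers summed to 1.35 to 1.64 TPM with JQ1, 15.4 to 16.6 TPM with FIDAS-5 and 6.58 to 9.87 TPM in vehicle, nearly all of it PECAM1, with CDH5 listed at 0 in all libraries. The 5 fibroblast markers summed to at most 2 TPM. The part of these differences in the host results was not tested.

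Changes below are log2 fold changes of TPM + 1 from a limma fit across all 13573 genes, called at an adjusted p under 0.05. The source of each library (separate cultures or repeats of one) is not labelled, so the p-values describe the spread between libraries and no more. TPM is a share of the library: less host RNA per cell, fewer cells that express it and more of other RNAs cannot be told apart.

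With JQ1, 4 of the 10 hosts fell against vehicle, SNHG15, SNHG1, SNHG16 and GAS5, and 0 rose, where 19.4% of all genes fell and 19.0% rose in limma. At an unadjusted p under 0.05 the counts were 5 lower and 0 higher, where 6461 of all 13573 genes were under it in either direction. All 10 hosts had a log2 fold change below 0, as 50.5% of all genes did, and their median was -0.56 against -0.01 over all genes. Without JQ1 library 3 the median was -0.31, against 0.12 over all genes, and without vehicle library 2 it was -0.37, against -0.03. In 5 hosts, the same 4 and SNHG7, every JQ1 library lay below every vehicle library, as in 26.2% of genes, and in 0 above, as in 24.5%.

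SNHG15, the host of SNORA9 and an RNA with a short half-life, had 17.8, 20.7 and 14.7 TPM in JQ1 libraries, against 54.6, 71.3 and 47.9 TPM in vehicle libraries. The groups were far apart, and the JQ1 mean was 30.6% of the vehicle mean. On the log2 scale SNHG15 changed by -1.65 ± 0.18 (SE, adjusted p = 0.000204, limma). SNHG16, the host of the SNORD1 family, had 70.5, 68.4 and 59.8 TPM in JQ1 libraries, against 138, 150 and 139 TPM in vehicle libraries. Spread within either group was small beside the gap between them. SNHG16 changed by -1.09 ± 0.12 (SE, adjusted p = 0.000225, limma). Both calls held under all 20 other settings tried.

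SNHG1 had 107, 114 and 61.2 TPM in JQ1 libraries, against 169, 242 and 206 TPM in vehicle libraries. The JQ1 libraries were all lower, library 3 most of all. On the log2 scale SNHG1 changed by -1.15 ± 0.24 (SE, adjusted p = 0.00586, limma), and it stayed called in all 20 other settings, between -1.32 and -0.87. GAS5, the host with the most snoRNAs, had 55.9, 55.6 and 38.8 TPM in JQ1 libraries, against 66.2, 110 and 80.1 TPM in vehicle libraries. The groups did not overlap, but the vehicle libraries were widely spread. GAS5 changed by -0.75 ± 0.21 (SE, adjusted p = 0.0207, limma). GAS5 was called in 15 of 20 other settings and not without vehicle library 2 (-0.55, adjusted p = 0.0593), vehicle library 3 (-0.77, 0.0517) or JQ1 library 3 (-0.57, 0.0512).

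The other 6 hosts did not pass with JQ1. SNHG6, the host of SNORD87, had 73.1, 62.5 and 29.4 TPM in JQ1 libraries, against 62.3, 96.9 and 75.5 TPM in vehicle libraries, and -0.58 ± 0.34 on the log2 scale was not called (SE, adjusted p = 0.214, limma). SNHG8, the host of SNORA24, had 90.1, 98.4 and 76 TPM in JQ1 libraries, against 90.8, 175 and 133 TPM in vehicle libraries, and -0.55 ± 0.23 was not called either (SE, adjusted p = 0.089, limma). In both the groups overlapped through vehicle library 1, and without that library SNHG8 was called (-0.79, adjusted p = 0.0116). SNHG7, with the SNORA17 pair in its introns, had 27.6, 27.5 and 23.1 TPM in JQ1 libraries, against 30.4, 31.4 and 29.8 TPM in vehicle libraries. Its JQ1 libraries were lower without overlap, and the log2 fold change of -0.23 ± 0.12 was not called (SE, adjusted p = 0.164, limma). ZFAS1 at -0.28, SNHG12 at -0.20 and SNHG5 at -0.06 had adjusted p values of 0.241, 0.464 and 0.803.

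With FIDAS-5, 2 of the 10 hosts fell against vehicle, SNHG1 and SNHG5, and 0 rose, where 7.60% of all genes fell and 12.6% rose in limma. At an unadjusted p under 0.05 the counts were 3 lower and 0 higher, where 4538 of all 13573 genes were under it in either direction. The count of 2 was 0 without vehicle library 2 or 3 or any 1 of the FIDAS-5 libraries, 1 without JQ1 library 1 or 2, and 4 without vehicle library 1. The log2 fold change was below 0 in 9 of 10 hosts, as in 52.0% of genes, with a median of -0.35 against -0.02 over all genes (-0.20 against -0.04 without vehicle library 2). In 5 hosts, SNHG1, SNHG5, SNHG15, SNHG16 and GAS5, all FIDAS-5 libraries lay below all vehicle libraries, as in 18.4% of genes, and in 0 above, as in 20.9%. The same 3 vehicle libraries serve both compounds, so the 2 sets of changes are not independent of each other.

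SNHG1 had 122, 105 and 98.1 TPM in FIDAS-5 libraries, against 169, 242 and 206 TPM in vehicle libraries. All FIDAS-5 libraries were lower, with a mean of 52.6% of vehicle. On the log2 scale this is -0.91 ± 0.24 (SE, adjusted p = 0.0304, limma). SNHG1 was called in 14 of 20 other settings. It was not called without vehicle library 2 (adjusted p = 0.0984) or 3 (0.0913), or without FIDAS-5 library 1 (0.0515), 2 (0.0841) or 3 (0.1), although the fold change stayed between -1.04 and -0.74 in all 20.

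SNHG5, the host of SNORD50A and SNORD50B, had 44.2, 35 and 40.6 TPM in FIDAS-5 libraries, against 51, 65 and 61 TPM in vehicle libraries. No FIDAS-5 library reached the lowest vehicle library. SNHG5 changed by -0.55 ± 0.16 on the log2 scale (SE, adjusted p = 0.0451, limma). SNHG5 was called in 8 of 20 other settings, with the fold change between -0.65 and -0.38. It was not called without any 1 FIDAS-5 library (adjusted p = 0.0603, 0.134 and 0.111 without libraries 1, 2 and 3), vehicle library 2 (0.123) or 3 (0.136), or JQ1 library 1 (0.0593) or 2 (0.066).

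GAS5 had 57.1, 54.4 and 51.7 TPM in FIDAS-5 libraries, against 66.2, 110 and 80.1 TPM in vehicle libraries. The FIDAS-5 libraries were close together and all below the lowest vehicle library. A change of -0.61 ± 0.21 on the log2 scale was not called (SE, adjusted p = 0.0729, limma). It passed in 5 of 20 other settings, among them quantile normalization (adjusted p = 0.0231). SNHG15 had 47.6, 47.8 and 41.6 TPM in FIDAS-5 libraries, against 54.6, 71.3 and 47.9 TPM in vehicle libraries. The highest FIDAS-5 library was just under the lowest vehicle library, and the log2 fold change of -0.32 ± 0.18 was not called (SE, adjusted p = 0.252, limma). SNHG16 had 129, 113 and 129 TPM in FIDAS-5 libraries, against 138, 150 and 139 TPM in vehicle libraries, and its change of -0.20 ± 0.12 was not called (SE, adjusted p = 0.288, limma). The FIDAS-5 and vehicle libraries of the remaining 5 hosts overlapped, and their log2 fold changes ran from -0.50 for SNHG8 to 0.08 for SNHG7. Without vehicle library 1, SNHG8 was called with FIDAS-5 as well (-0.75, adjusted p = 0.0251).

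**Figure D3:**
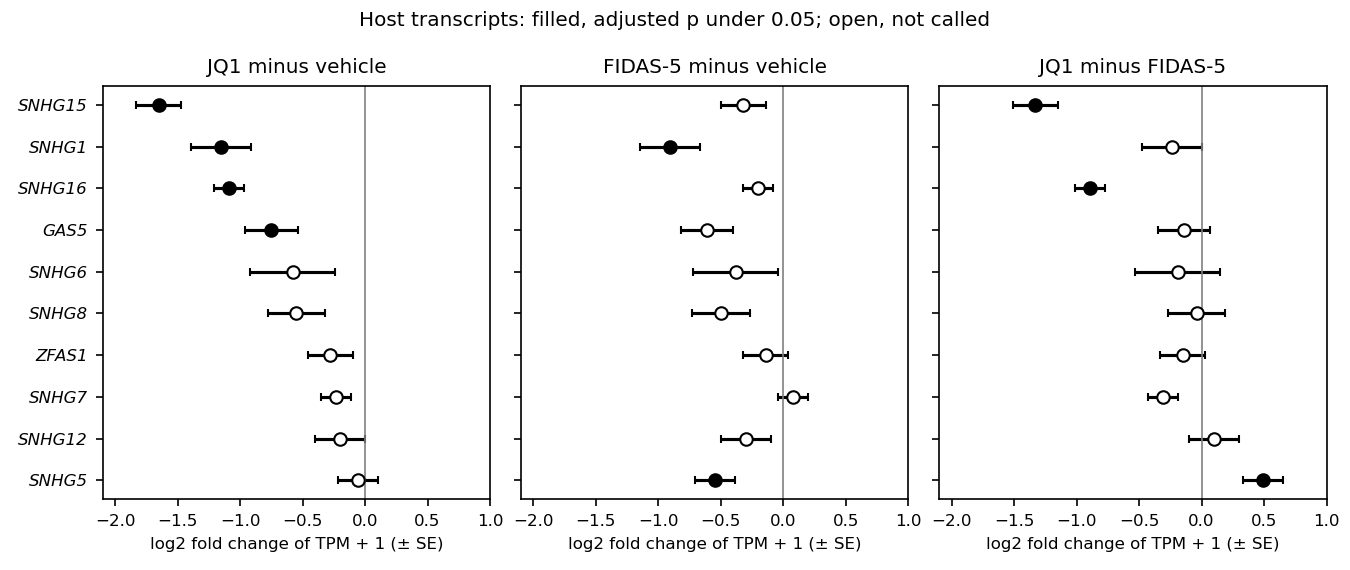
Log2 fold change of TPM + 1 (x axis, with SE) of each host transcript in the 3 comparisons; filled points have an adjusted p under 0.05 in limma. SNHG15, SNHG1, SNHG16 and GAS5 are filled for JQ1 against vehicle, SNHG1 and SNHG5 for FIDAS-5 against vehicle, and SNHG15, SNHG16 and SNHG5 for JQ1 against FIDAS-5.

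Between the treated groups, 2 of 10 hosts were lower with JQ1 than with FIDAS-5, SNHG15 and SNHG16, and 1 was higher, SNHG5, where 18.5% of all genes were lower and 16.4% higher. Of the 10, 8 had a log2 fold change below 0, as 46.6% of genes did. In 3 every JQ1 library lay below every FIDAS-5 library, as in 25.0% of genes, and in 1 above, as in 22.7%. The compounds are unrelated inhibitors at different doses, so these differences compare 2 treatments and not potencies. SNHG15 differed by -1.33 ± 0.18 (SE, adjusted p = 0.000598, limma) and SNHG16 by -0.89 ± 0.12 (SE, adjusted p = 0.000612, limma), each called in all 20 other settings. SNHG5 had 61.6, 62.3 and 46.6 TPM in JQ1 libraries, against 44.2, 35 and 40.6 TPM in FIDAS-5 libraries. The JQ1 libraries were all higher, by 0.49 ± 0.16 on the log2 scale (SE, adjusted p = 0.0456, limma). With the replicate number as a block this call was lost (adjusted p = 0.0664), and it held in 10 of 20 other settings. It was not called without any 1 FIDAS-5 library (adjusted p = 0.0515, 0.146 and 0.0965 without libraries 1, 2 and 3), JQ1 library 1 (0.138) or 2 (0.15), or vehicle library 3 (0.0708). The differences of SNHG1, GAS5, SNHG6, SNHG8, SNHG12, SNHG7 and ZFAS1 lay between -0.31 and 0.10 and were not called. Only SNHG7 of these 7 had JQ1 libraries without overlap below FIDAS-5 libraries (-0.31 ± 0.12, SE, adjusted p = 0.0715, limma).

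The snoRNAs in the introns of the hosts were listed under their own symbols, and all 36 passed the filter. With JQ1, 23 of 36 (63.9%) fell and 0 rose in limma, where 19.4% of all genes fell and 19.0% rose. Their median on the log2 scale was -0.98, against -0.01 over all genes. The JQ1 count was 15 without vehicle library 2, vehicle library 3 or JQ1 library 1. With FIDAS-5, 10 of 36 (27.8%) fell and 0 rose, where 7.60% of all genes fell and 12.6% rose. The median was -0.60, against -0.02 over all genes, and the count of 10 was 5 without vehicle library 3 or FIDAS-5 library 2. Between the treated groups 5 of 36 (13.9%) were lower with JQ1, a smaller share than the 18.5% of all genes, and 0 higher, or 1 higher without JQ1 library 3. No snoRNA of the 36 was higher at an unadjusted p under 0.05 in any of the 3 comparisons, while 26 were lower with JQ1, 14 with FIDAS-5 and 6 with JQ1 than with FIDAS-5. Of all 13573 genes, 6461, 4538 and 6041 were under it in these comparisons, in either direction. Of 287 other snoRNAs tested, 68 (23.7%) fell with JQ1, 25 (8.71%) fell with FIDAS-5 and 49 (17.1%) were lower with JQ1 than with FIDAS-5. These shares were near the 19.4%, 7.60% and 18.5% of all genes, so the falling counts are no result about other snoRNAs. Their medians were also below those of all genes, at -0.47 with JQ1, -0.24 with FIDAS-5 and -0.21 between the treated groups. At an unadjusted p under 0.05 in limma, 89 of the 287 were lower and 8 higher with JQ1. With FIDAS-5 45 were lower and 11 higher, and between the treated groups 60 and 15. A downward shift was thus not particular to the snoRNAs of these hosts. Of the 287, 4 rose with JQ1 (2 without FIDAS-5 library 2 or JQ1 library 3), 3 rose with FIDAS-5 (12 with quantile normalization, 11 without vehicle library 2, 1 without vehicle library 1 or 3), and 8 were higher with JQ1 than with FIDAS-5 (4 without FIDAS-5 library 3). Over all genes 19.0%, 12.6% and 16.4% were higher. The FIDAS-5 count of 25 was 8 without vehicle library 2, 12 without vehicle library 3, and 15 or 16 without FIDAS-5 library 1 or 2, and the count of 49 was 31 without FIDAS-5 library 3. TPM of RNAs this short is uncertain, 7 of the 36 were listed at 0 in at least 1 library, and a snoRNA and a retained intron of its host can share reads.

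By class, 17 of 28 box C/D and 6 of 8 box H/ACA snoRNAs fell with JQ1, and with FIDAS-5 10 of 28 box C/D and 0 of 8 box H/ACA snoRNAs fell. Over all genes 19.4% fell with JQ1 and 7.60% with FIDAS-5, and of the other snoRNAs 23.7% and 8.71%. The difference between classes was not tested. The 10 that fell with FIDAS-5 were SNORD25, SNORD26, SNORD28 and SNORD31 of SNHG1, SNORD44, SNORD47, SNORD76 and SNORD80 of GAS5, SNORD50B of SNHG5 and SNORD12C of ZFAS1. All but SNORD50B also fell with JQ1, against the same vehicle libraries. The FIDAS-5 call of SNORD25 held in 8 of 20 other settings, that of SNORD44 in 12 of 19, and those of SNORD31 and SNORD76 in 14 of 19. SNORD12C kept it in 16 of 20, SNORD26 and SNORD50B in 19 of 20, and SNORD28, SNORD47 and SNORD80 in all. The 6 snoRNAs that overlap no annotated exon of their host (SNORD99, SNORD1B, SNORD78, SNORD75, SNORD12B and SNORD12C) included 4 that fell with JQ1 and 1 that fell with FIDAS-5.

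The snoRNAs of SNHG1 summed to 1161 ± 69.6 TPM in JQ1 libraries, 1175 ± 141 TPM in FIDAS-5 libraries and 2393 ± 354 TPM in vehicle libraries (SD, n = 3 each). SNORD28, which guides methylation of the small-subunit ribosomal RNA, had 309, 324 and 229 TPM in JQ1 libraries, 242, 234 and 238 TPM in FIDAS-5 libraries and 502, 620 and 550 TPM in vehicle libraries. Both treated groups lay far below vehicle. The log2 fold change of SNORD28 was -0.96 ± 0.16 with JQ1 (SE, adjusted p = 0.00154, limma) and -1.22 ± 0.16 with FIDAS-5 (SE, adjusted p = 0.00101, limma). SNORD26, which guides methylation of the large-subunit ribosomal RNA, had 502, 314 and 544 TPM in JQ1 libraries, 473, 445 and 540 TPM in FIDAS-5 libraries and 940, 1229 and 1148 TPM in vehicle libraries. Its log2 fold change was -1.31 with JQ1 (adjusted p = 0.00163, limma) and -1.18 with FIDAS-5 (adjusted p = 0.0055, limma; 0.0603 with a trend on GC content removed). SNORD22 and SNORD27 of the same host did not pass with either compound, and SNORD22 averaged 56.8 TPM with JQ1, 46.1 TPM with FIDAS-5 and 34 TPM in vehicle.

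The 11 snoRNAs of GAS5 summed to 870 ± 134 TPM in JQ1 libraries, 1099 ± 150 TPM in FIDAS-5 libraries and 2210 ± 453 TPM in vehicle libraries (SD, n = 3 each). Of the 11, 8 fell with JQ1 and 4 with FIDAS-5, where 19.4% and 7.60% of all genes fell. SNORD80 had 197, 135 and 119 TPM in JQ1 libraries, 248, 224 and 255 TPM in FIDAS-5 libraries and 419, 713 and 491 TPM in vehicle libraries. The 3 groups did not overlap. The log2 fold change was -1.84 ± 0.24 with JQ1 (SE, adjusted p = 0.000478, limma) and -1.12 ± 0.24 with FIDAS-5 (SE, adjusted p = 0.0109, limma). The difference between the compounds, -0.72, was called (adjusted p = 0.0439, limma) but not with the replicate block (0.0597), and it was called in 9 of 19 other settings. SNORD80 lost that last call without any 1 FIDAS-5 library (adjusted p = 0.0951, 0.0822 and 0.113 without libraries 1, 2 and 3), JQ1 library 2 (0.126) or 3 (0.101), or vehicle library 3 (0.0657). SNORD74 was lower with JQ1 than with vehicle by -1.37 (adjusted p = 0.000303, limma) and lower with JQ1 than with FIDAS-5 by -0.96 (adjusted p = 0.00204, limma). Its change with FIDAS-5 was -0.41 and not called (adjusted p = 0.11, limma).

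SNORA9 was called in the same comparisons as its host SNHG15. It had 56.6, 41.9 and 46.9 TPM in JQ1 libraries, 128, 97.4 and 85.2 TPM in FIDAS-5 libraries and 119, 174 and 154 TPM in vehicle libraries. Only the JQ1 libraries stood apart, by -1.59 ± 0.20 against vehicle (SE, adjusted p = 0.000473, limma) and -1.07 ± 0.20 against FIDAS-5 (SE, adjusted p = 0.00385, limma). SNORA24 of SNHG8, which guides pseudouridylation of the small-subunit ribosomal RNA, had 121, 210 and 125 TPM in JQ1 libraries, 305, 340 and 475 TPM in FIDAS-5 libraries and 322, 465 and 384 TPM in vehicle libraries. It fell by 1.39 on the log2 scale with JQ1 (SE 0.26, adjusted p = 0.00313, limma), while SNHG8 itself was not called at -0.55. The levels of SNORA24 with FIDAS-5 and in vehicle overlapped, with a difference of -0.07 ± 0.26 (SE, adjusted p = 0.87, limma).

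In hosts that were not called with JQ1, 8 of 13 snoRNAs fell with JQ1, against 15 of 23 in the 4 hosts that were called. Their median log2 fold changes were -0.79 and -1.20, and the difference was not tested. With JQ1 19.4% of all genes and 23.7% of other snoRNAs fell. SNORA17A and SNORA17B of SNHG7, SNORA16A and SNORA44 of SNHG12, and SNORD12, SNORD12B and SNORD12C of ZFAS1 make up the 8 with SNORA24. Of the 3 ZFAS1 snoRNAs printed above, 1 was called with FIDAS-5, and the difference between them was not tested. SNORD12C had 121, 76.5 and 114 TPM in FIDAS-5 libraries, against 161, 196 and 187 TPM in vehicle libraries, a change of -0.82 ± 0.21 (SE, adjusted p = 0.0227, limma) that was not called without vehicle library 2 (0.0714) or 3 (0.0786) or FIDAS-5 library 2 (0.0582). SNORD12B had 416, 313 and 456 TPM in FIDAS-5 libraries, against 249, 467 and 323 TPM in vehicle libraries, a change of 0.22 ± 0.24 that was not called (SE, adjusted p = 0.569, limma). With JQ1, SNORD12C changed by -1.09, SNORD12B by -0.84 and SNORD12 by -0.61 (adjusted p = 0.0033, 0.0224 and 0.0441, limma). SNORD12 kept that call in 5 of 20 other settings and without vehicle library 1 alone among single libraries left out. SNORD12B lost it without vehicle library 2 (0.0614) or 3 (0.0562) or JQ1 library 1 (0.0687). Reads of related snoRNAs such as these, or of SNORA17A and SNORA17B, may be split between the copies.

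**Figure D4:**
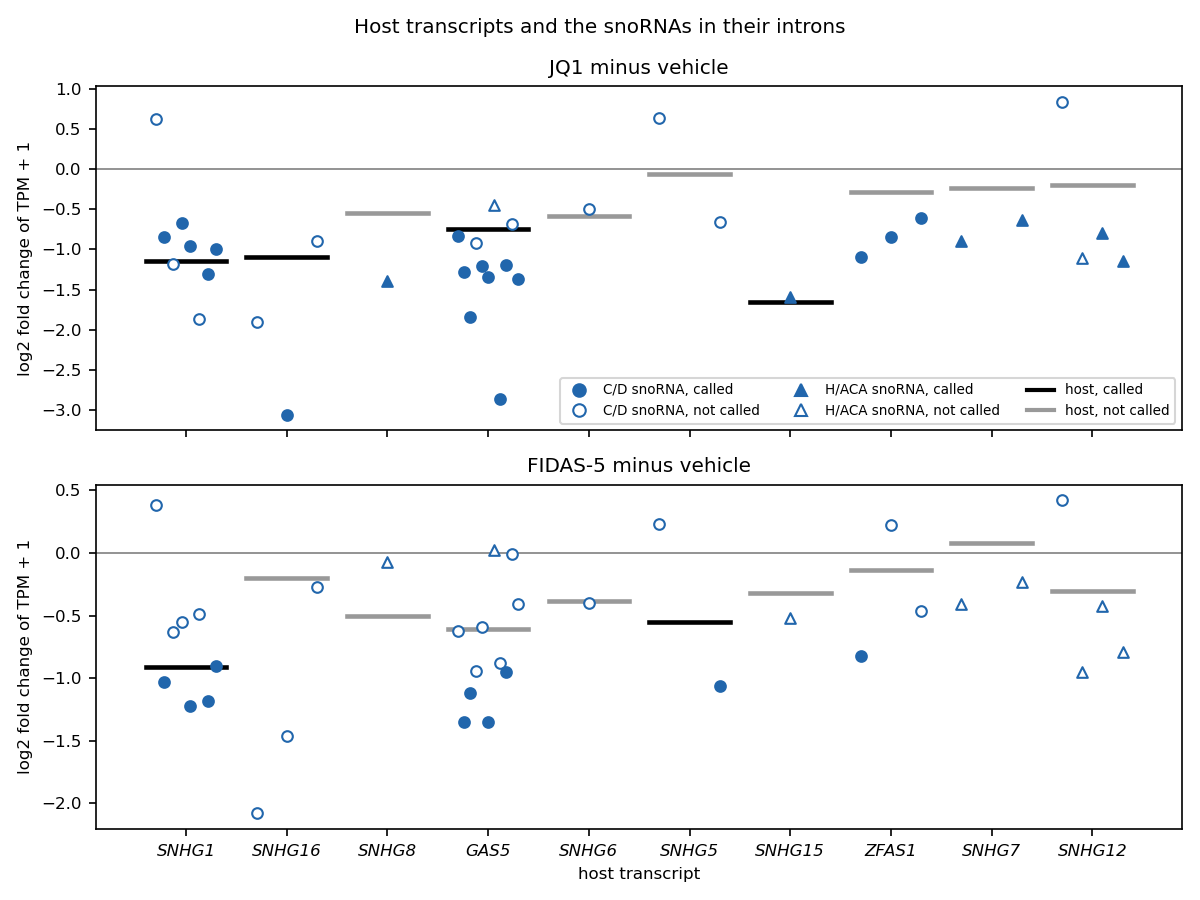
Log2 fold change of TPM + 1 of each host transcript (horizontal bars) and of the snoRNAs in its introns (points; circles box C/D, triangles box H/ACA; filled or black where adjusted p was under 0.05 in limma), for JQ1 minus vehicle (top) and FIDAS-5 minus vehicle (bottom). With JQ1 the snoRNAs of SNHG8, ZFAS1 and SNHG7 are filled while the bars of those hosts are grey; with FIDAS-5 no triangle is filled.

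The proteins that make and assemble snoRNA particles fell with JQ1 in 15 of 21 genes tested (71.4%, against 19.4% of all genes) and rose in 0, and their median on the log2 scale was -0.67. With FIDAS-5, 5 of 21 fell (23.8%, against 7.60% of all genes) and 0 rose, with a median of -0.40. That count was 2 without vehicle library 2 or FIDAS-5 library 2 or 3, 3 without vehicle library 3, 9 with quantile normalization and 10 with a GC trend removed. At an unadjusted p under 0.05, 18 were lower with JQ1 and 10 with FIDAS-5, and 0 higher with either. Of all 13573 genes, 6461 with JQ1 and 4538 with FIDAS-5 were under it in either direction. FBL, the methyltransferase fibrillarin of box C/D particles, averaged 73.2 ± 4.89 TPM with JQ1, 91.8 ± 2.31 TPM with FIDAS-5 and 158 ± 14.6 TPM in vehicle (SD, n = 3 each). It fell with JQ1 (-1.09, adjusted p = 0.000199, limma) and with FIDAS-5 (-0.77, adjusted p = 0.00252, limma). GAR1, a protein of box H/ACA particles, averaged 2.91 ± 1.03 TPM with JQ1, 6.52 ± 0.447 TPM with FIDAS-5 and 8.2 ± 1.06 TPM in vehicle (SD, n = 3 each). It fell with JQ1 (-1.26, adjusted p = 0.00114, limma) and not with FIDAS-5 (-0.29, adjusted p = 0.335, limma). The difference between the treated groups was called too (-0.98, adjusted p = 0.00452, limma). DBR1, which opens the intron lariat before the snoRNA is trimmed, fell with JQ1 by 1.09 on the log2 scale (adjusted p = 0.00377, limma).

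Of 14 other noncoding hosts tested, 6 fell and 1 rose with JQ1 (42.9% and 7.14%, against 19.4% and 19.0% of all genes). With FIDAS-5, 2 fell and 1 rose (14.3% and 7.14%, against 7.60% and 12.6% of all genes), and the 2 were 4 with quantile normalization or a GC trend removed. The 1 that rose with JQ1 was SNHG19 (0.55, adjusted p = 0.0402, limma), called in 11 of 20 other settings and not called without any 1 vehicle library, JQ1 library 1 or 2, or FIDAS-5 library 2. LRRC75A-AS1 averaged 365 ± 12.4 TPM with JQ1, 458 ± 16.7 TPM with FIDAS-5 and 677 ± 138 TPM in vehicle (SD, n = 3 each), a change of -0.87 with JQ1 (adjusted p = 0.00207, limma). Its change of -0.54 with FIDAS-5 (adjusted p = 0.0332, limma) was called in 10 of 20 other settings, and in none that left out vehicle library 2, JQ1 library 1 or 2 or any 1 FIDAS-5 library. DANCR averaged 194 ± 8.54 TPM with JQ1, 348 ± 33.3 TPM with FIDAS-5 and 303 ± 10.7 TPM in vehicle (SD, n = 3 each), and so fell with JQ1 (-0.64, adjusted p = 0.00292, limma) but not with FIDAS-5 (0.19, adjusted p = 0.286, limma). SNHG3 fell with both, by -0.63 with JQ1 (adjusted p = 0.00212, limma) and -0.54 with FIDAS-5 (adjusted p = 0.00849, limma; 0.0623 with a GC trend removed). SNHG9 rose with FIDAS-5 (0.72, adjusted p = 0.0203, limma), but not without FIDAS-5 library 1 (0.0644) or 2 (0.0683) or vehicle library 3 (0.0821), nor with a GC trend removed (0.41, 0.165). Of 127 protein-coding snoRNA hosts tested, 32 (25.2%) fell and 18 (14.2%) rose with JQ1, and 12 (9.45%) fell and 5 (3.94%) rose with FIDAS-5. Over all genes 19.4% fell and 19.0% rose with JQ1, and 7.60% fell and 12.6% rose with FIDAS-5. The falling shares were near these, so the falling counts are no result about coding hosts. Their medians were -0.17 with JQ1 and -0.20 with FIDAS-5, against -0.01 and -0.02 over all genes. The JQ1 count of 18 was 29 with a GC trend removed. The FIDAS-5 count of 12 was 6 or 7 without vehicle library 3 or FIDAS-5 library 2 or 3, and 25 with a GC trend removed. The FIDAS-5 count of 5 was 2 without vehicle library 3 or FIDAS-5 library 1, 3 without FIDAS-5 library 3 or JQ1 library 2, and 10 with the GC trend removed.

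TOP mRNAs share the pyrimidine start. Of 80 ribosomal protein mRNAs, 24 (30%) fell and 4 (5%) rose with JQ1 (median -0.31), where 19.4% of all genes fell and 19.0% rose. With FIDAS-5, 9 (11.2%) fell and 0 rose (median -0.24), where 7.60% of all genes fell and 12.6% rose. The JQ1 count of 24 was 15 without vehicle library 3, and the FIDAS-5 count of 9 was 5 without vehicle library 2 or FIDAS-5 library 1 and 3 without FIDAS-5 library 3. The 0 that rose with FIDAS-5 were 1 without vehicle library 3 and 2 with quantile normalization. At an unadjusted p under 0.05, 22 were lower and 2 higher with FIDAS-5 in limma, where 4538 of all 13573 genes were under it in either direction. RPSA fell with both compounds, by -0.84 with JQ1 (adjusted p = 0.00148, limma) and -0.79 with FIDAS-5 (adjusted p = 0.00392, limma). Among 19 other TOP mRNAs tested, of translation factors and others, 6 (31.6%) fell and 3 (15.8%) rose with JQ1. With FIDAS-5 3 (15.8%) of the 19 fell and 1 (5.26%) rose. The median was -0.16 with either compound, and these counts were not followed under other settings. Of 20 genes of nonsense-mediated decay, 4 rose and 1 fell with JQ1, and 2 rose and 1 fell with FIDAS-5. The rising shares, 20% with JQ1 and 10% with FIDAS-5, were near the 19.0% and 12.6% of all genes, so these counts are no result about the list, and the genes named here are described singly. The JQ1 count of 4 was 2 without vehicle library 3 and the JQ1 count of 1 was 2 without vehicle library 1 or 2, and the FIDAS-5 count of 2 was 0 without vehicle library 3 or FIDAS-5 library 3 and 1 without vehicle library 2 or FIDAS-5 library 1. UPF1, the helicase at the centre of that pathway, averaged 30.2 ± 0.484 TPM with JQ1, 22.5 ± 3.97 TPM with FIDAS-5 and 13.2 ± 1.99 TPM in vehicle (SD, n = 3 each). It rose with JQ1 (1.14, adjusted p = 0.000745, limma) and with FIDAS-5 (0.72, adjusted p = 0.0137, limma), in the second case not without FIDAS-5 library 3 (0.0601) or vehicle library 3 (0.0581). SMG6, the endonuclease of the pathway, rose with JQ1 (1.49, adjusted p = 0.000307, limma) and was higher with JQ1 than with FIDAS-5 (1.24, adjusted p = 0.000819, limma). MAGOHB was the 1 gene of the list that fell with each compound. It changed by -1.56 with JQ1 (adjusted p = 0.000458, limma) and -0.99 with FIDAS-5 (adjusted p = 0.00854, limma), both called in all 20 other settings.

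At 3 hosts a protein-coding gene starts on the other strand within 1000 bases of the host's start in GENCODE 29. SLC3A2, a subunit of amino acid transporters whose start lies 188 bases from that of SNHG1, had 149, 146 and 147 TPM in JQ1 libraries, 511, 284 and 459 TPM in FIDAS-5 libraries and 140, 117 and 113 TPM in vehicle libraries. It rose with FIDAS-5 (1.71 ± 0.21 SE, adjusted p = 0.000819, limma), in the comparison in which SNHG1 fell. ZNFX1, a helicase gene whose start lies 248 bases from that of ZFAS1, had 5.11, 4.87 and 5.43 TPM in JQ1 libraries, 12.6, 10.1 and 12.8 TPM in FIDAS-5 libraries and 5.56, 7.31 and 7.05 TPM in vehicle libraries. It rose with FIDAS-5 (0.75 ± 0.14 SE, adjusted p = 0.00668, limma), while ZFAS1 changed by -0.14 and was not called (adjusted p = 0.632, limma). ZBTB37, which overlaps GAS5, averaged 0.962 TPM with JQ1, 1.06 TPM with FIDAS-5 and 0.908 TPM in vehicle and was not called.

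Over the 9 libraries the log2 levels of single hosts correlated with the mean of the other 9 at Pearson's r from 0.343 for SNHG5 to 0.966 for GAS5. Outside the 10, genes among the 5 closest to their mean standardised level over the 9 libraries were SAP18 (r = 0.991), COPS3 (0.981), RPS20 (0.98) and HIKESHI (0.979). These values describe 9 points that share libraries and treatment groups. SAP18 averaged 28.3 ± 4.14 TPM with JQ1, 32.1 ± 1.56 TPM with FIDAS-5 and 40.5 ± 7.34 TPM in vehicle (SD, n = 3 each). As in the hosts, its highest vehicle value was in library 2 and its lowest JQ1 value in library 3.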

How the data were processed

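Total RNA of Huh7 cells was sequenced in 9 libraries, 3 per group. The authors deposited TPM per gene symbol, which the submitters' processing notes tie to Salmon and to hg38; the Salmon version, annotation and strand setting are not given in the sources used here. TPM keeps no read counts, so depth and counting error are unknown. Symbols were matched to RefSeq (25681 current, 1134 synonyms, 985 unmatched), which also gave the spans of the hosts. Strands, exons and the printed snoRNA sequences with their positions came from GENCODE 29. SnoRNAs were assigned to hosts by position.

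Genes that reached 1 TPM in 3 or more libraries (13573) were fitted as log2(TPM + 1) with limma 3.58.1 in R 4.3.3, with group means over all 9 libraries (6 residual and 2.86 prior degrees of freedom), two-sided, with Benjamini-Hochberg adjustment over all genes. The pseudocount of 1 understates changes of low genes. The fit was tested on simulated data. Figures used Python 3.11.15 with matplotlib 3.10.9.

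The host list, gene lists and tests were chosen with earlier results of these data known. Named were all hosts, their snoRNAs and neighbours, up to 4 genes per list with the smallest adjusted p in a comparison, any gene describing its list, and genes among the 5 most correlated. A leukocyte marker and a correlated gene are not reported here. Replicate numbers come from the labels. Deviations of same-numbered JQ1 and FIDAS-5 libraries correlated at 0.26, 0.102 and 0.422 across genes, so these groups were treated as paired in an alternative fit; treated and vehicle libraries correlated at -0.076 to 0.16. Alternatives were a pseudocount of 0.1, no filter, a 5 TPM filter, 3 other scalings, only the 6 libraries compared, the replicate block, a trend in the moderation, GC correction, and leaving out libraries.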

Additional observations from a re-analysis of the deposited data

How the results depend on the processing

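The count of hosts that fell with JQ1 (4) stayed between 3 and 5 when each library was left out, and within 1.5 times of 4 under every other setting. The count with FIDAS-5 (2) was 1 with a pseudocount of 0.1, 1 with only the 6 libraries compared, 1 with the replicate block, 1 with FIDAS-5 library 3 and JQ1 library 3 left out together, and 0 without a filter, and 0 to 4 when each library was left out. SNHG5, the 1 host higher with JQ1 than with FIDAS-5, left that count at 0 with a pseudocount of 0.1, with no filter, with only the 6 libraries and with the replicate block, and at 0 to 1 when each library was left out. Intronic snoRNAs that fell with FIDAS-5 (10) were 6 without a filter and 5 to 11 when each library was left out; those that fell with JQ1 (23) were 15 to 23, and snoRNAs higher with JQ1 than with FIDAS-5 (0) were 1 with quantile normalization and 0 to 1 when each library was left out. Over all genes, FIDAS-5 calls (2742) were 4389 with a GC trend removed and 1639 to 3290 when each library was left out (1639 without vehicle library 3, 1640 without FIDAS-5 library 3), and calls between the compounds (4726) were 2991 with the 5 TPM filter. With the replicate block SNHG5 lost its FIDAS-5 call (adjusted p = 0.0675) and SNORD29 its JQ1 call (0.0579); with the 2 losses given in the report, it ended no other call among the genes followed. Counts of intronic snoRNAs that fell were 25 with JQ1, 11 with FIDAS-5 and 6 between the compounds under the block. Directions turned only for uncalled values: with FIDAS-5, SNHG7 to -0.16 with GC removed; with JQ1, SNHG5 to 0.02 with quantile normalization, 0.09 with GC removed, 0.08 with library 3 of both compounds left out, and -0.16 to 0.08 when each library was left out; between the compounds, SNHG8 to 0.06 with quantile normalization. When each library was left out, the differences between the compounds ran from -0.41 to 0.04 for SNHG1, -0.45 to 0.20 for SNHG6, -0.13 to 0.06 for SNHG8, -0.06 to 0.27 for SNHG12, -0.22 to 0.03 for GAS5 and -0.25 to 0.02 for ZFAS1. The hosts' median without vehicle library 2 was -0.37 with JQ1 and -0.20 with FIDAS-5, and the JQ1 median without JQ1 library 3 was -0.31, where that of all genes moved to 0.12. Causes of these shifts were not tested. The GC correction was void for intronic snoRNAs as a group, since 22 of 36 (61.1%) had a GC value. The encoded-snoRNA, other-list and named-gene settings were added after the data were seen.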
